A study of Mus musculus with 3 samples.

Results

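The bone morphogenetic protein (BMP) and TGF-beta pathway genes of the early mouse kidney were examined as ratios between 2 stages of development. Members were the genes whose symbol in the platform annotation matched a fixed pattern covering BMP, GDF, TGF-beta and activin ligands, their receptors, Smad proteins, Id genes and extracellular regulators, with Bmp7 left out. A value on all 3 arrays was required, which gave 60 members of 14047 genes tested. Chrd, a secreted BMP antagonist gene, and Gdf3 matched the pattern but had values on only 2 arrays each, at 0.36 and 0.86 on arrays 1 and 3 for Chrd and -0.85 and 0.30 on arrays 1 and 2 for Gdf3, and were not tested.

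Each of the 3 long-oligonucleotide arrays (a Compugen mouse set) carried amplified RNA, labelled through amino allyl groups, of CD1 mouse embryos, both sexes pooled: metanephric mesenchyme microdissected at 10.5 days post coitum (dpc) as channel 1 and whole metanephroi of 11.5 dpc as channel 2. The labels record no transgene, mutation or treatment and no common reference. Arrays 1 and 2 had the dye order red/green, while array 3 had green/red. With 1 green/red array, its dye order cannot be told apart from anything else particular to that array. Nothing in the labels says whether the arrays represent separate dissections. The p-values therefore reflect how far the 3 arrays differ, together with the variance of all genes, and that difference may be technical. An 11.5 dpc metanephros also holds the ureteric bud, and in bulk tissue a different share of cells and a different amount of RNA per cell cannot be told apart.

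All values are log2 ratios between the channels. Neither the labels nor the table say which stage is the numerator, so genes are placed on a positive or a negative side, and no stage is assigned to either. Array 3 was used as deposited, since over 15340 probes its ratios correlated weakly but above 0 with the others. Spearman's rho was 0.251 with array 1 and 0.205 with array 2, against 0.492 within the red/green pair. Pearson's r was lower, at 0.0688 and 0.0302 against 0.351, so the correlations over all probes are a weak ground for this choice. In the tissue marker lists of 6 or 10 genes, Spearman's rho with array 3 was from 0.257 to 0.964. Yet of 144 genes at -1.5 or lower on both red/green arrays, 82 were positive on array 3. Unadjusted limma p-values under 0.05 covered 19.6% of all genes as deposited and 5.55% with array 3's sign reversed. That reversal ended all 13 calls given here, while 10 of them held with array 3 left out. All 13 had the same sign on every array, so this loss was largely fixed in advance and is no ground for the choice. Where 3 values of a gene follow each other they are those of arrays 1, 2 and 3, and errors are SDs over these arrays (n = 3). No intensity was analysed here, so a spot's distance from background is unknown and levels of different genes cannot be compared.

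BMP and TGF-beta ligands are secreted dimers that join type I and type II serine/threonine kinase receptors. BMP-type receptors phosphorylate Smad1, Smad5 and Smad9, TGF-beta and activin receptors phosphorylate Smad2 and Smad3, and both sets enter the nucleus with Smad4. In the kidney, Bmp4 in the mesenchyme around the Wolffian duct restrains ureteric budding, and Grem1, a secreted BMP antagonist, lifts that restraint where the bud forms.

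After Benjamini-Hochberg adjustment of limma's p-values over all genes, 0 of 60 members passed 0.05, and the lowest member value was 0.149. Among all 14047 genes 0 passed (0.0%), while 2750 had an unadjusted p under 0.05. With 3 arrays an exact sign permutation test could give no p below 0.25. Members are therefore described by limma's unadjusted p, and "called" means that this p was under 0.05, with no claim beyond it. There were 13 called members, which is 21.7% of 60, against a background of 19.6% of all genes tested. Of these, 10 were positive, which is 16.7% against 9.89% of all genes, and 3 were negative, which is 5.0% against 9.69%. The overall share thus lay near the background. The median member had a mean log2 ratio of -0.018, against -0.00195 over all genes, and a median SD over the arrays of 0.362, against 0.337.

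Of the members, 15 were positive on every array, which is 25.0% against 22.9% of all genes, and 13 were negative on every array, which is 21.7% against 22.5%. The remaining 32 had arrays on both sides of 0. The called positive members were the TGF-beta ligand Tgfb2, the TGF-beta receptor Tgfbr2, the latent TGF-beta binding protein Ltbp3, the activin subunit Inhba, the BMP-family ligands Bmp5 and Gdf5, the BMP modulator Bmper, the corepressor Tgif1 and the target genes Id1 and Id2. The called negative members were the ligands Bmp2, Bmp10 and Gdf2.

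**Figure D1:**
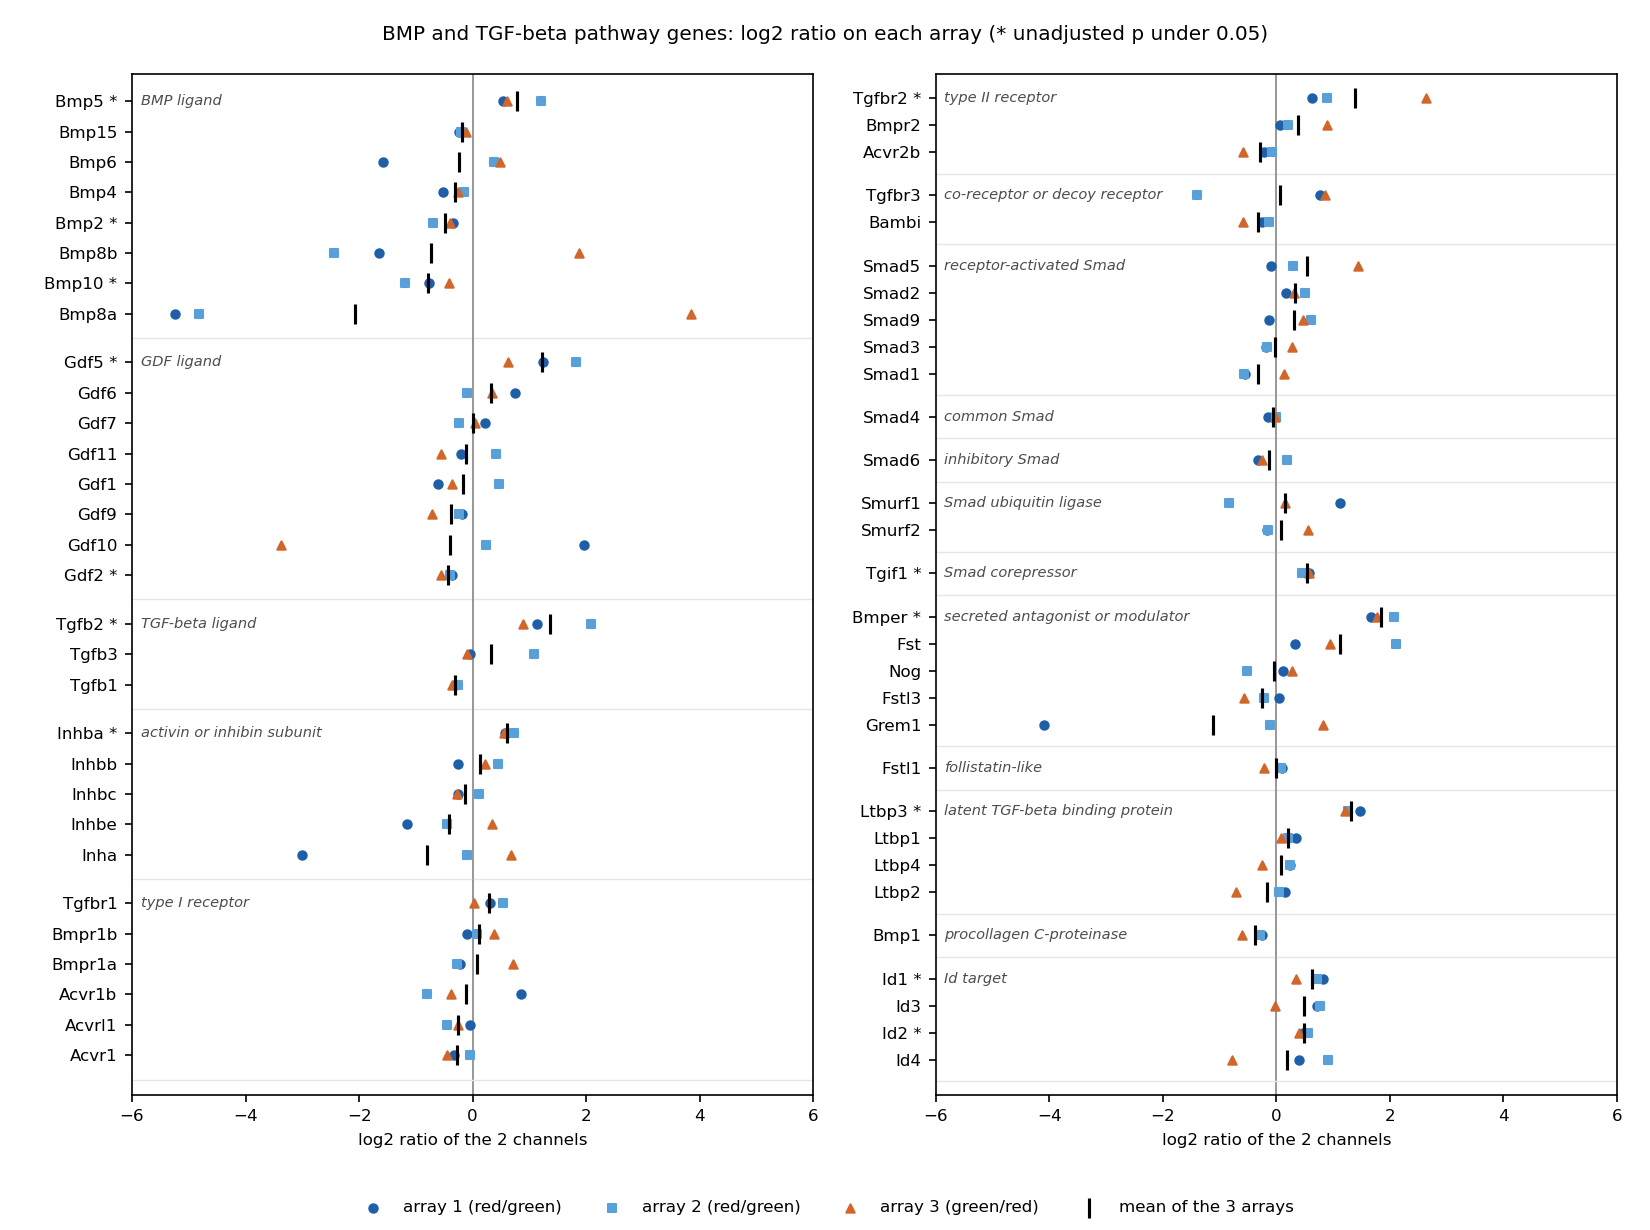
Log2 ratio of the 2 channels (x axis) for the 60 members, grouped by role, with 1 symbol per array and a bar at the mean of the 3 arrays. Asterisks mark the 13 members with an unadjusted p under 0.05; Bmp8a, Bmp8b, Gdf10 and Grem1 have the widest spread between arrays.

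For orientation, the sides were read against tissue markers. Over all genes tested 19.6% were called, 9.89% positive and 9.69% negative. The called shares of the metanephric mesenchyme and erythroid lists, 20.0% each, lay near the share of all genes. All 4 measured renal stroma genes (Foxd1, Tcf21, Meis1, Meis2) were called and positive, with means from 1.00 to 1.56. Of 10 metanephric mesenchyme genes, 2 were called, Wt1 at 1.75 ± 0.0447 (SD, n = 3) and Cited1 at 0.86 ± 0.294, both positive, and the list ranged from -0.36 to 1.75. Of 6 ureteric bud genes, Calb1 was called on the positive side at 1.16 ± 0.096 and Ret on the negative side at -0.43 ± 0.111. On the negative side were 5 called genes of 10 for limb bud and flank mesenchyme, with list means from -1.95 to 0.16, and 5 called of 10 for endothelium, from -1.12 to 0.093. Of 10 somite and muscle genes, 4 were called negative and 1 positive, from -4.96 to 0.62, and of 5 erythroid genes, 1 was called negative, from -1.10 to 0.013. The part of these tissues in the members' ratios was not tested, and ratios cannot show that a marker is absent.

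Among the TGF-beta ligands, Tgfb2 alone was called. Tgfb2 encodes a ligand that is required for normal urogenital development. Its log2 ratio was 1.13 and 2.08 on the red/green arrays and 0.88 on array 3, with a mean of 1.36 ± 0.634 (SD, n = 3), an unadjusted p of 0.0112 and an adjusted p of 0.171 by limma. That mean corresponds to 2.57-fold, and the gene stayed called when any 1 array was left out. Tgfb1 pointed the other way on every array, at -0.31, -0.25 and -0.35 in array order, with a mean of -0.31 ± 0.0517 and a p of 0.0878 by limma. Its arrays agreed closely, but the size was small and it was not called. Tgfb3 had -0.042, 1.09 and -0.10, so array 2 stood apart from the other arrays and its mean of 0.32 ± 0.668 lay within the spread.

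TGF-beta is secreted in a latent complex with LTBP proteins, which hold it in the extracellular matrix. Ltbp3, which binds latent TGF-beta, had 1.47 and 1.26 on the red/green arrays and 1.20 on array 3. Its mean of 1.31 ± 0.138 (2.48-fold) had an unadjusted p of 0.00102 and an adjusted p of 0.149 by limma, and its arrays lay closer together than those of Tgfb2. Ltbp1 was positive on every array at 0.34, 0.21 and 0.079 and was not called. Ltbp2 and Ltbp4 were positive on arrays 1 and 2 and negative on array 3, with means of -0.17 ± 0.468 and 0.074 ± 0.281.

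Of 5 measured activin and inhibin subunits, Inhba was called. Inhba encodes the beta A chain that dimerises into activin A. It had 0.57 and 0.73 on the red/green arrays and 0.55 on array 3, a mean of 0.61 ± 0.0965 and a p of 0.0125 by limma. All arrays were close together. With only 2 arrays in limma's fit the call was lost without array 1, where the mean was 0.64, and without array 2, where it was 0.56. The other 4 subunit genes had arrays on both sides of 0, with means of -0.14 ± 0.225 for Inhbc and -0.42 ± 0.748 for Inhbe. Inhbb, the beta B chain gene, had -0.25, 0.44 and 0.21, and Inha, the inhibin alpha chain gene, had -3.0, -0.10 and 0.68, with array 1 far below the rest.

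Of 8 BMP ligand genes, Bmp5 was called on the positive side, and Bmp2 and Bmp10 on the negative side. Bmp5, a ligand of the Bmp7 subfamily expressed in embryonic mesenchyme, had 0.53 and 1.21 on the red/green arrays and 0.61 on array 3, a mean of 0.78 ± 0.369 and a p of 0.02 by limma. The call was lost without array 1, 2 or 3, where the means were 0.91, 0.57 and 0.87, and with a dye term (0.74). Bmp10, known as a ligand of the heart, had -0.77, -1.19 and -0.41, a mean of -0.79 ± 0.393 and a p of 0.0217 by limma. It lost the call without array 1 (-0.80) and without array 2 (-0.59).

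Bmp2 had -0.35, -0.69 and -0.40 on the probe measured on every array, with a mean of -0.48 ± 0.187 and a p of 0.0375 by limma. A further Bmp2 probe lacked a value on array 2 and read 1.74 on array 1 and -0.39 on array 3. Averaging both probes gave a mean of -0.13 and a p of 0.715 by limma, so the Bmp2 call rests on the choice of probe. It was also lost without array 1, 2 or 3, with means of -0.55, -0.37 and -0.52, and with a dye term (-0.46).

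Bmp4, the ligand that restrains budding, was negative on every array at -0.52, -0.16 and -0.26. Its mean was -0.31 ± 0.187 with a p of 0.115 by limma, and it was not called. With array weights estimated by limma it was called at -0.40, with a p of 0.0447. Bmp15, an oocyte ligand gene, was also negative throughout at -0.24, -0.20 and -0.11. Bmp6 had -1.59, 0.38 and 0.49, where array 1 was far below the rest.

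Bmp8a and Bmp8b, closely related ligand genes whose transcripts an oligonucleotide may not separate, had array 3 opposite to arrays 1 and 2. Bmp8a had -5.24 and -4.82 on the red/green arrays and 3.85 on array 3, and Bmp8b had -1.65 and -2.43 on the red/green arrays and 1.88 on array 3. Both were strongly negative on the red/green arrays and strongly positive on the green/red array, so the means of -2.07 ± 5.13 and -0.74 ± 2.3 describe no array. On arrays 1 and 2 alone the means were -5.03 for Bmp8a and -2.04 for Bmp8b, with p-values of 0.000303 and 0.00816 by limma. Of 144 genes with a log2 ratio of -1.5 or lower on both red/green arrays, 82 (56.9%) were positive on array 3, and 47 of them reached at least 1.5 there. Bmp8a and Bmp8b were the 2 members among the 144. Of 82 genes at 1.5 or above on both red/green arrays, Bmper among them, 26 (31.7%) were negative on array 3.

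Of 8 GDF ligand genes, Gdf5 was called on the positive side and Gdf2 on the negative side. Gdf5, a BMP-like ligand best known from developing joints, had 1.23 and 1.83 on the red/green arrays and 0.62 on array 3. Its mean was 1.23 ± 0.604 with a p of 0.014 by limma, and the call was lost without array 1 at a mean of 1.22. Gdf2 encodes BMP9, a circulating ligand made in the liver. It had -0.37, -0.40 and -0.55, a mean of -0.44 ± 0.0975 and a p of 0.036 by limma. It was not called without array 1, 2 or 3, with means of -0.47, -0.46 and -0.38. Acvrl1, the type I receptor gene through which BMP9 and BMP10 signal in endothelium, was negative on every array at -0.039, -0.46 and -0.26 and was not called. Of the 10 endothelial markers 9 had negative means and 5 (50.0%) were called negative, against 9.69% of all genes. The part of endothelium in these ratios was not tested. Gdf11, which is needed for ureteric budding, had -0.21, 0.41 and -0.55 and spread over both sides. Gdf9, an oocyte ligand gene, was negative on every array at -0.18, -0.24 and -0.71 without a call. Gdf10 had 1.95, 0.24 and -3.37, and the other members of the group, Gdf1, Gdf6 and Gdf7, had means from -0.17 to 0.33 with arrays on both sides.

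Of 9 receptor genes of type I and type II, Tgfbr2 was called. Tgfbr2 encodes the type II receptor that binds TGF-beta. It had 0.63 and 0.89 on the red/green arrays and 2.64 on array 3, a mean of 1.39 ± 1.1 and a p of 0.0463 by limma. Array 3 was well above the others, and without it the mean was 0.76 and the gene stayed called. Without array 2 the mean was 1.64 and the call was lost, as it was with the arrays centred, scaled alike or weighted. A further probe of the gene, without a value on array 2, read 0.32 on array 1 and 0.50 on array 3, which is the same side at smaller size. Tgfbr1, the partner type I receptor gene, was positive on every array at 0.31, 0.54 and 0.033 and was not called, with a p of 0.16 by limma. Tgfbr3, the betaglycan co-receptor gene, had 0.77, -1.40 and 0.85, with array 2 opposite to the rest. Without array 2 its mean moved from 0.072 to 0.81 and it was called.

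The activin and BMP receptor genes gave no call. Acvr2b, a type II activin receptor gene, was negative on every array at -0.22, -0.082 and -0.59, as was Acvr1, a BMP type I receptor gene, at -0.33, -0.047 and -0.45. Acvr1b, an activin type I receptor gene, had 0.85, -0.80 and -0.39. Bmpr1b, a BMP type I receptor gene, had -0.10, 0.08 and 0.38. Bmpr2, the BMP type II receptor gene, averaged 0.065, 0.21 and 0.89 over 2 probes whose means differed in sign, at 0.81 ± 0.656 and -0.037 ± 0.760. The 2 probes of Bmpr1a likewise had means of 0.43 ± 0.292 and -0.29 ± 0.819, and averaged -0.22, -0.27 and 0.71. Bmp1, which encodes a protease that cleaves procollagen and chordin and no BMP ligand, had probe means of -0.85 ± 1.01 and 0.079 ± 0.915. Hence no direction is given for Bmpr1a, Bmpr2 or Bmp1.

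**Figure D2:**
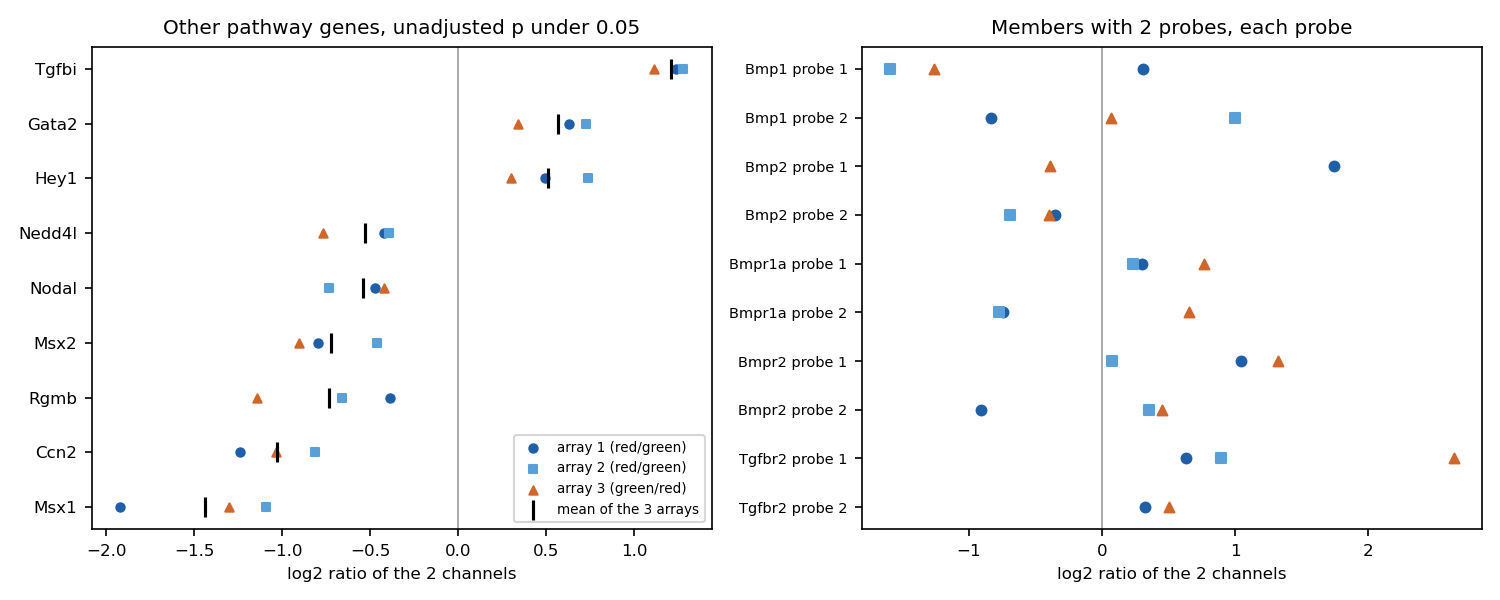
Left, log2 ratio of the 2 channels on each array for the 9 called genes of the pathway outside the membership rule, with a bar at the mean. Right, each probe of the 5 members with 2 probes; the probes of Bmp1, Bmp2, Bmpr1a and Bmpr2 have means of opposite sign, and those of Tgfbr2 lie on 1 side.

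None of the Smad genes was called. Smad2, a TGF-beta and activin Smad, was positive on every array at 0.16, 0.50 and 0.31, with a mean of 0.33 ± 0.17 and a p of 0.0987 by limma. Smad3, its partner in that branch, had -0.18, -0.16 and 0.27. Of the BMP Smads, Smad1 had -0.56, -0.56 and 0.13, Smad5 had -0.10, 0.29 and 1.44 and Smad9 had -0.12, 0.61 and 0.46, each with arrays on both sides of 0. On arrays 1 and 2 alone Smad1 had a mean of -0.56 and a p of 0.0384 by limma. Smad4, the common partner, had -0.16, -0.0029 and -0.031, and Smad6, an inhibitory Smad, had -0.32, 0.19 and -0.25. Neither differed from 0 beyond the spread of its arrays.

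Of the genes that act on Smads, Tgif1 was called. Tgif1 encodes a homeodomain corepressor of Smad2 and Smad3 complexes. It had 0.58 and 0.46 on the red/green arrays and 0.58 on array 3, a mean of 0.54 ± 0.0695 and a p of 0.0179 by limma. The call was lost without array 1 and without array 2, although the means there, 0.52 and 0.58, were close to the mean of all arrays. Smurf1 and Smurf2, which encode ubiquitin ligases for Smads and receptors, had means of 0.14 ± 0.98 and 0.078 ± 0.416 with arrays on both sides.

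Among secreted regulators, Bmper had the smallest p of all members. Bmper encodes a chordin-like protein that binds BMPs outside the cell. Its log2 ratio was 1.66 and 2.07 on the red/green arrays and 1.77 on array 3, with a mean of 1.84 ± 0.212 (3.57-fold), an unadjusted p of 0.000418 and an adjusted p of 0.149 by limma. The mean ranked 65th of 14047 on the positive side. It stayed called without any 1 array, with p from 0.0035 to 0.00431 by limma. Bmper, Ltbp3 and Tgfb2 were the 3 members called in each of these fits.

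Fst, which encodes the activin-binding protein follistatin, was positive on every array at 0.33, 2.11 and 0.95. Array 2 was far above array 1, and the mean of 1.13 ± 0.899 had a limma p just over the threshold, so Fst was not called. It was called without array 1 (1.53) and with the arrays scaled alike (1.09). It was also called with extremes limited and with the median of probes, where the mean stayed at 1.13. Grem1, the antagonist of Bmp4 in budding, had -4.09, -0.11 and 0.82. Array 1 was far below the others, the arrays lay on both sides of 0, and no direction is given. Nog, the noggin gene, had 0.12, -0.51 and 0.28. Bambi, a decoy receptor gene and BMP target, was negative on every array at -0.26, -0.14 and -0.58, with a p of 0.121 by limma, and was not called. The follistatin-related genes Fstl1 and Fstl3 had means of -0.012 ± 0.184 and -0.25 ± 0.303.

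Promoter sequences are shown for the 2 members with the smallest p and for the Id genes held in the table, since Id genes are direct BMP targets. They come from RefSeq (GRCm38.p6) and cover the 250 bases before the transcript start, 5′ to 3′ on the gene's strand. Windows were found for 46 of 60 members. Capitals mark GGCGCC, a core of BMP-responsive elements, and CAGAC, a Smad-binding element that reads GTCTG on the other strand. Id1 had no entry.
Bmper (chr9:23222826-23223075, plus strand): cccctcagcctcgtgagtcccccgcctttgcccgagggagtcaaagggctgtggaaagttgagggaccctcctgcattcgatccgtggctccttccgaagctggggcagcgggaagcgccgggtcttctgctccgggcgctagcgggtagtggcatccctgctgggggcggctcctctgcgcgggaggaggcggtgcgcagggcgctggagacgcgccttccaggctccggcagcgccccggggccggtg
Ltbp3 (chr19:5740650-5740899, plus strand): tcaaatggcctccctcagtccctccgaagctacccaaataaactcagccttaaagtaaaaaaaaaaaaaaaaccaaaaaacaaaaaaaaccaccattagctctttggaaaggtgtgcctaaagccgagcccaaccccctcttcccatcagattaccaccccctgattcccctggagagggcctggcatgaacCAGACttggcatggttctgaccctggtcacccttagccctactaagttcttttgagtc
Id2 (chr12:25096093-25096342, minus strand): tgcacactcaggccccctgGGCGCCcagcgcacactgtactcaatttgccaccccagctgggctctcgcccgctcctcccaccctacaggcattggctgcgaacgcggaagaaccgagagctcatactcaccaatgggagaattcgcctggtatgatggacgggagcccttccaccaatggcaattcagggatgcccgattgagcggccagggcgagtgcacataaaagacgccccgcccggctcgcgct
Id3 (chr4:136143572-136143821, plus strand): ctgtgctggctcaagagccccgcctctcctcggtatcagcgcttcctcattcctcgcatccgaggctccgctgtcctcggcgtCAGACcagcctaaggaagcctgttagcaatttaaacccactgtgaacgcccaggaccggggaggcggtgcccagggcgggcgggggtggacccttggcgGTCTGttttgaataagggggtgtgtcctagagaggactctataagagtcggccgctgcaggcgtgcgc
Id4 (chr13:48260866-48261115, plus strand): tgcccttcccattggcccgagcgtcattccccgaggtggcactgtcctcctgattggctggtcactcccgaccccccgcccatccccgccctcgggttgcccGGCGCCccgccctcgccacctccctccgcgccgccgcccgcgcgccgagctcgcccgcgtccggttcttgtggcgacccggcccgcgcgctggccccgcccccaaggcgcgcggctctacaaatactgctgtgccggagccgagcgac

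GGCGCC, which reads the same on both strands, began 231 bases before the start in Id2 and 148 in Id4. CAGAC or its complement began 167 and 68 bases before the start in Id3 and 58 in Ltbp3. The Bmper window held neither. Among 32851 windows of the same length, 9.59% held GGCGCC and 42.2% held CAGAC on either strand. Some genes have several starts, so the 46 members have 59 windows, of which 12 (20.3%) held GGCGCC and 29 (49.2%) held CAGAC. The longer Smad-binding palindrome GTCTAGAC, which holds neither CAGAC nor GTCTG, was in 0.167% of all windows and in 0 of the members' windows. A match describes the letters only.

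Id1 to Id4 encode helix-loop-helix proteins that block E-protein transcription factors, and the means of all 4 were positive. Id1 had 0.81 and 0.72 on the red/green arrays and 0.35 on array 3, a mean of 0.63 ± 0.246 and a p of 0.0217 by limma. Id2 had 0.47 and 0.56 on the red/green arrays and 0.40 on array 3, a mean of 0.48 ± 0.0848 and a p of 0.027 by limma. Neither call held without array 1, where the means were 0.54 and 0.48, or without array 2, where they were 0.58 and 0.43. Id3 had 0.72, 0.76 and -0.023, and was called on arrays 1 and 2 alone at 0.74. Id4 had 0.40, 0.92 and -0.77. Thus all 4 were positive on the red/green arrays, and on the green/red array Id1 and Id2 were positive, Id3 lay near 0 and Id4 was negative.

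Agreement with array 3 differed between members. In 15 of 60 members (25.0%) arrays 1 and 2 shared a sign that array 3 did not, against 25.6% of all genes. The SD over arrays was above 1 in 8 of 60 members, a share near the 12.9% of all genes. These 8 were Bmp6, Bmp8a, Bmp8b, Gdf10, Grem1, Inha, Tgfbr2 and Tgfbr3. Over the 60 members Spearman's rho was 0.510 for arrays 1 and 2, 0.183 for arrays 1 and 3, and 0.254 for arrays 2 and 3. Over all genes these were 0.501, 0.258 and 0.208. Genes on an array share its hybridisation, so these values are a description.

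**Figure D3:**
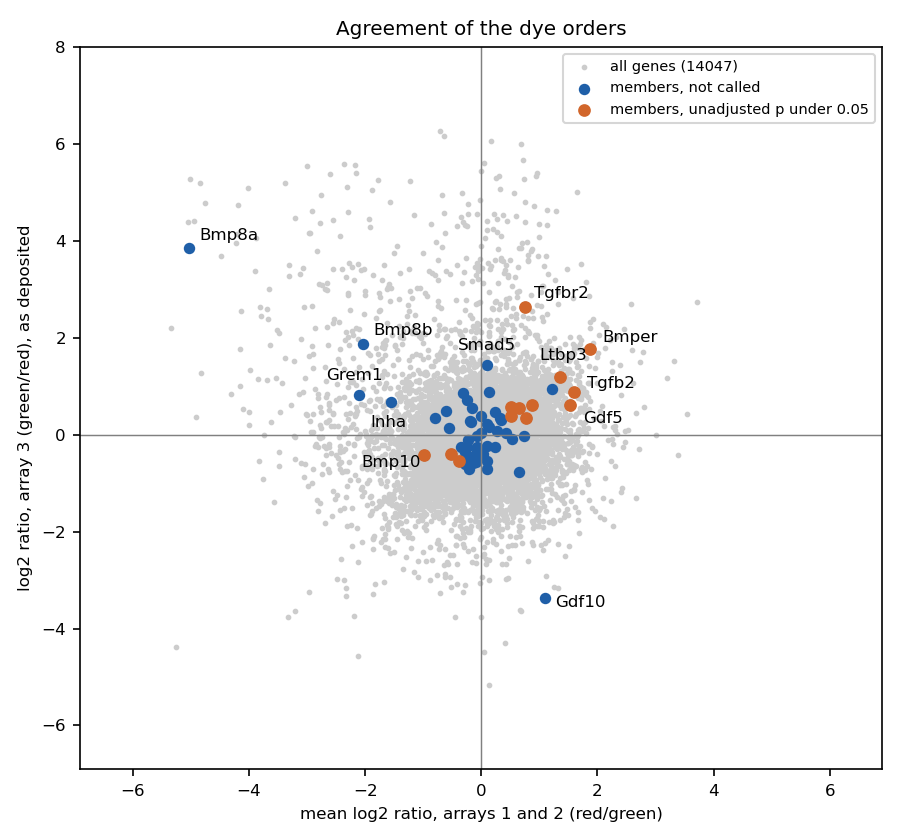
Mean log2 ratio on the red/green arrays 1 and 2 (x axis) against the log2 ratio on the green/red array 3 (y axis), for all 14047 genes in grey, members not called in blue and the 13 called members in orange. Called members lie on the same side on both axes, while Bmp8a, Bmp8b and Gdf10 lie on opposite sides.

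Turning array 3 the other way ended all 13 calls, with 12 of 13 keeping the sign of the mean. All 13 had the same sign on every array, so turning 1 array had to shrink their means in size and widen their spread. The loss of these calls was thus largely fixed in advance. Tgfbr2 went to -0.37. The means were then 0.65 for Bmper, 0.51 for Ltbp3 and 0.78 for Tgfb2. In their place Bmp8a at -4.63, Bmp8b at -1.99, Gdf10 at 1.86 and Id4 at 0.70 were called. As deposited, these 4 had array 3 opposite in sign to arrays 1 and 2. The background with array 3 turned was 5.55% of all genes called. With a dye term in the fit 11 of the 13 kept their call, and Bmp1, Bmp8a, Bmpr2, Gdf9 and Smad5 were newly called, against 21.3% of all genes. With array weights 12 of the 13 kept it and Bmp4 and Id3 were newly called, against 28.3% of all genes. Without array 1, 4 of the 13 kept it and 5 members were called, against 8.23% of all genes. Without array 2, again 4 kept it and 5 were called, against 10.3% of all genes. Without array 3, 10 kept it and 14 were called, against 21.0% of all genes.

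**Figure D4:**
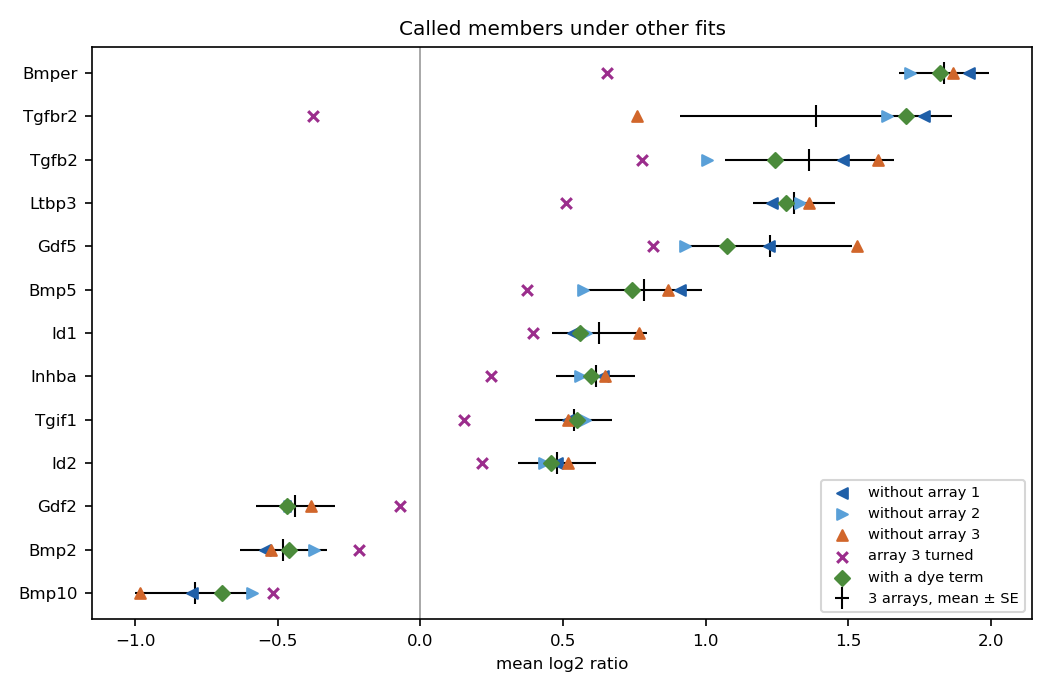
Mean log2 ratio (x axis) of the 13 called members, with 1 symbol for each other fit. Bars are the SE of limma's fit to the 3 arrays, which also draws on the variance of all genes. Leaving out an array or adding a dye term leaves each mean on its side of 0. This was fixed in advance, as all 13 have the same sign on every array, and is no sign of stability. With array 3 turned Tgfbr2 changes sides and the others move towards 0.

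The pathway has other genes that the membership rule leaves out, and 49 of 69 listed symbols had values on all arrays. Of these 9 were called, which is 18.4% against the background of 19.6%, 3 positive and 6 negative. Tgfbi, a matrix protein gene named for its induction by TGF-beta, had 1.24, 1.28 and 1.12, a mean of 1.21 ± 0.0857 and a p of 0.00111 by limma. Ccn2, the connective tissue growth factor gene and also a TGF-beta target, had -1.24, -0.81 and -1.03 and a mean of -1.03 ± 0.215, with a p of 0.00353 by limma. These targets thus lay on opposite sides.

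The BMP target genes Msx1 and Msx2, homeobox genes of the limb bud and flank that also stand in the limb marker list, were called on the negative side at -1.44 ± 0.432 and -0.72 ± 0.23. They lay on the side opposite to Id1 and Id2. Of the 10 limb and flank markers 9 had negative means, and their part in the Msx ratios was not tested. Hey1, a Notch and BMP target, was positive at 0.51 ± 0.221, as was Gata2 at 0.57 ± 0.199. The ligand gene Nodal at -0.54 ± 0.168, the co-receptor gene Rgmb at -0.73 ± 0.384 and Nedd4l, a ubiquitin ligase gene for Smads, at -0.53 ± 0.208 were called on the negative side. The other 40 were not called. Of the 49, 16 were negative on every array, which is 32.7% against 22.5% of all genes, and 6 were positive on every array, which is 12.2% against 22.9%.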

How the data were processed

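RNA of 10.5 dpc metanephric mesenchyme and 11.5 dpc metanephroi was compared on 3 2-colour arrays. Per the labels, the authors read spots with Imagene 5.5, applied print-tip lowess and a between-array normalization in R; each lowess point used 20.0% of the data, and control channel values were raised to at least 10. The authors' deposited values are log2 ratios, and the lowest linear ratio was 0.01. The numerator and the genome build are not given in the sources used here.

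Of 21819 gene probes, 16656 had 1 symbol in the platform annotation, 137 had several and 5026 none. Entrez identifiers matched for 15970 and changed 0 symbols. Probes with values on all 3 arrays were averaged per gene. A two-sided limma 3.58.1 fit (lmFit, then eBayes; R 4.3.3) tested each mean against 0, with Benjamini-Hochberg adjustment over 14047 genes, after a test on simulated data. SDs are over arrays, whose number limits the precision. Figures used Matplotlib 3.10.9.

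Every member was given by role, with values per array for called members and a list of pathway members. The extremes of a role were given per array or by means. The called other pathway genes were named. Members and lists were chosen with earlier results of these data known. Bmp6, Bmp8b, Bmp15, Gdf9, Gdf10, Acvr1, Acvr1b and Ltbp1 were given per array after their values were seen. Alternatives were median centring, scaling, values on 2 arrays, a dye term, array 3 turned, robust variances, array weights, other probe summaries, limited extremes and each array left out.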

Additional observations from a re-analysis of the deposited data

How the results depend on the processing

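At an adjusted p of 0.05, 0 genes passed under each alternative run. The 13 called members became 4 (2 positive) with array 3 turned and 5 to 14 with an array left out. The positive count was 5 to 10 and the negative count 0 to 4 with an array left out, and with a dye term the negative count was 5. The other pathway genes went from 9 called to 3 with array 3 turned, 15 with array weights and 6 to 14 with an array left out. Over all genes 2750 were called, 779 with array 3 turned, 1156 without array 1, 1453 without array 2 and 2943 without array 3. Tgfbr2 changed sign with array 3 turned, to -0.37, since 2.64 on array 3 outweighed 0.63 and 0.89 on arrays 1 and 2. Why array 3 was higher was not tested. Under median centring, scaling, array weights, values on 2 arrays and probes with a value on any array, 12 of the 13 called members kept their call, and under robust variances, the median of probes, genes with 1 probe and limited extremes 13 did. The averaging of probes with a value on any array was chosen after seeing the data. Of the 47 members that were not called, 22 changed the sign of the mean with array 3 turned, 9, 8 and 10 without array 1, 2 and 3, 8 with array weights, 4 with a dye term and 1 with median centring. Each ratio already pairs the tissues within an array. No paired analysis was possible because, beyond that, there is no second group of arrays with which replicate numbers could be shared.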
